A study of Mus musculus with 4 samples.

Results

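Among the quiescent cells of the dorsal ventricular-subventricular zone (V-SVZ) at postnatal day 12 (P12), cells rich in Rgs5 were compared with cells rich in Thbs4. Rgs5 encodes a regulator of G protein signaling known from pericytes, and Thbs4 encodes thrombospondin 4, a secreted matrix protein known from astrocytes of the V-SVZ. Cells with 2000 to 8000 detected genes and under 10% mitochondrial counts were kept. A kept cell counted as quiescent with at least 2 unique molecular identifiers (UMIs) of Slc1a3, a glial glutamate transporter, and no UMI of Egfr, Mki67, Top2a, Foxj1, Dcx, Gsx2, Six3 or Crym. The Rgs5 group then required at least 2 UMIs of Rgs5 and at most 1 of Thbs4, and the Thbs4 group at least 3 UMIs of Thbs4 and 0 of Rgs5. The cells were thus chosen by the UMI counts of these 11 genes, which are left out of every test and count below. The Rgs5 group held 163 cells (106 in replicate 1 and 57 in replicate 2) and the Thbs4 group 962 cells (620 and 342), together 1125 of 11602 P12 cells kept.

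All mice were wild-type OF1, and both groups came from the same libraries, so that they share strain, age, labelled sex (male), dissection, papain dissociation and sort of viable cells. P12 was profiled in 2 libraries of independent experiments with 10x Genomics 3' version 3 chemistry, and P2 and P22 in 1 library each of pooled mice. It is not settled from the sources whether each P12 library holds 1 or 2 mice, and the methods state that 1 mouse at P2 was female. The 4 libraries held 65323423 to 106402687 UMIs over 4608 to 8617 barcodes, of which 4027 to 7006 cells were kept. The P12 libraries shared 12 barcodes, none of them in the 2 groups. Median depth was alike, at 9378 UMIs per cell in the Rgs5 group and 9068 in the Thbs4 group of replicate 1, and at 12059 and 11722 in replicate 2. With cells thinned to 5000 UMIs, which left out 1 and 2 shallower cells of the Rgs5 group and 14 and 7 of the Thbs4 group, the median number of detected genes was 2357 and 2411 in the Rgs5 group and 2310 and 2391 in the Thbs4 group, against 3512.5 and 4165 and 3405 and 4030.5 before thinning.

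Neural stem cells of the V-SVZ are glial cells that line the lateral ventricle. Most are quiescent, which means that they rest outside the cell cycle, and they share many transcripts with astrocytes. Those of the dorsal wall include a pallial lineage, marked by Emx1, and a subpallial lineage, marked by genes such as Gsx2. Signals of the Notch and bone morphogenetic protein (BMP) pathways are known to hold such cells in quiescence, Notch through Hes factors and BMP through Id factors.

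Cells of the Rgs5 group took a larger share of quiescent cells at P2 than at P12 or P22, and cells of the Thbs4 group a larger share at P12 and P22, as the plot of quiescent cells by library shows. The Rgs5 group allows at most 1 UMI of Thbs4, so that its share also depends on Thbs4. With no limit on Thbs4, at least 2 UMIs of Rgs5 were found in 22.1% of quiescent cells at P2, 16.5% and 26.9% at P12 and 4.01% at P22. The P2 value thus lay between the P12 values. At P12 the Rgs5 group made up 6.59% of 1608 quiescent cells in replicate 1 (95% exact Clopper-Pearson interval 5.43 to 7.92) and 6.46% of 882 in replicate 2 (4.93 to 8.29). The Thbs4 group made up 38.6% (36.2 to 41.0) and 38.8% (35.5 to 42.1). Cells with at least 2 UMIs of both genes made up 9.89% (8.47 to 11.5) and 20.4% (17.8 to 23.2), so that this share differed between the libraries beyond counting error. At P2, 49 of 222 quiescent cells were in the Rgs5 group (22.1%, 16.8 to 28.1), 1 in the Thbs4 group, and 0 had both genes (exact upper bound 1.65%, or 1.35% by the limit of 3 cells). At P22, 6 of 324 were in the Rgs5 group (1.85%, 0.683 to 3.99) and 133 in the Thbs4 group (41.0%, 35.6 to 46.6). P2 and P22 have 1 library each, and the intervals cover counting error only, so that these differences between ages have no replicate check. The thresholds are fixed UMI numbers, while median depth of quiescent cells was 14872 UMIs at P2, 9165.5 and 11549.5 at P12 and 8045 at P22. With cells thinned to 5000 UMIs before grouping, the Rgs5 group held 20 cells at P2, 88 and 71 at P12 and 4 at P22. The Thbs4 group then held 3, 790 and 598, and 136. The part of depth in these shares, that of cells with both genes included, was not tested. As a measure of free RNA, of 121 cells with oligodendroglial UMIs in replicate 1 (median depth 22008 UMIs, against 9165.5 in quiescent cells), 0.826% had at least 2 UMIs of Rgs5 and 4.96% at least 3 of Thbs4, against 16.5% and 58.0% of quiescent cells. In replicate 2, of 11 cells with microglial UMIs (median depth 15790.0 UMIs, against 11549.5), 0 had at least 2 UMIs of Rgs5 and 3 had at least 3 of Thbs4 (27.3%), against 26.9% and 70.2% of quiescent cells. The 8 such cells of replicate 1 had 0 UMIs of either gene. The background of Thbs4 in replicate 2 rests on these few cells.

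**Figure D1:**
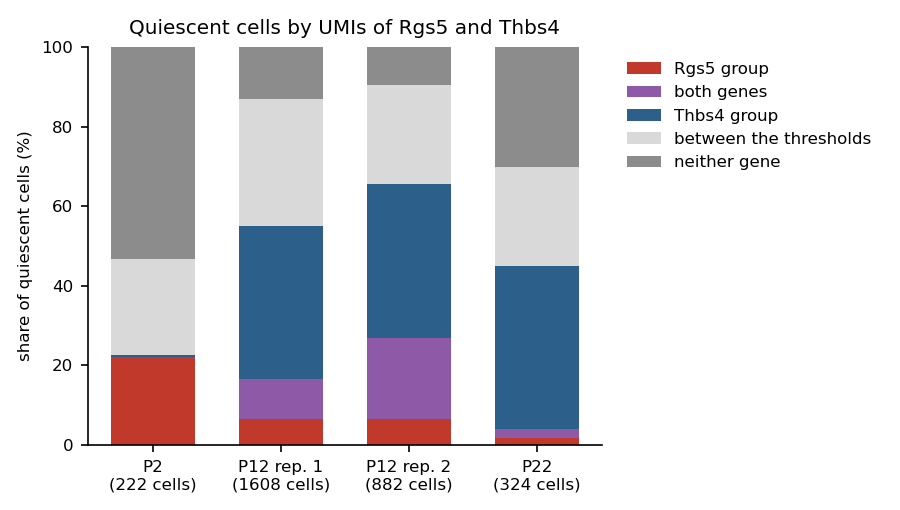
Stacked bars give the share of quiescent cells (percent, y axis) in each class, 1 bar for each library, with the number of quiescent cells under it. The Rgs5 group takes 22.1% at P2, 6.59% and 6.46% at P12 and 1.85% at P22, and the Thbs4 group 38.6% and 38.8% at P12 and 41.0% at P22.

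Both groups carried pallial transcripts at like levels. Emx1, a homeobox gene of the pallium, had a UMI in 40.6% and 49.1% of Rgs5 group cells and in 42.6% and 53.2% of Thbs4 group cells, against 12.0% and 7.28% of quiescent cells that had a UMI of Gsx2, Six3 or Crym (called subpallial here). Levels are given in CPM, the UMIs of a gene in a group scaled to 1000000 UMIs of that group and library, for replicates 1 and 2. Fold changes are those of the Rgs5 group over the Thbs4 group, so that a negative value means higher in the Thbs4 group. Emx1 was at 50.6 and 74.8 CPM in the Rgs5 group against 71.6 and 81.6 CPM in the Thbs4 group (log2 fold change -0.35 ± 0.16 (SE), adjusted p = 0.31). Of the genes that go with the 2 group names, Cntnap2, a neurexin-like adhesion protein, was at 165 and 173 CPM in the Rgs5 group against 146 and 141 CPM in the Thbs4 group (log2 fold change 0.20 ± 0.11 (SE), adjusted p = 0.49). Tfap2c, a transcription factor, was at 136 and 117 CPM in the Rgs5 group against 94.5 and 149 CPM in the Thbs4 group (log2 fold change 0.12 ± 0.12 (SE), adjusted p = 0.81). Neither passed the test. Col9a1, a collagen IX chain, was at 37.1 and 50.4 CPM in the Thbs4 group against 26.3 and 22.0 CPM in the Rgs5 group and was higher in the Thbs4 group in both libraries (log2 fold change -0.82 ± 0.24 (SE), adjusted p = 0.0218). The groups are therefore named by the genes that chose them and not by these markers. Of the 14 pallial regional genes tested, Zic1 and Zic2 were higher in the Thbs4 group and 12 did not pass, among them Emx2, Pax6, Lhx2, Dmrta2 and Nr2f1. Of 4 subpallial regional genes tested, Meis2, Rorb and Gli1 were higher in the Rgs5 group. The 18 genes of this list summed to 1546 and 1641 CPM in the Rgs5 group and 1270 and 1239 CPM in the Thbs4 group. In subpallial quiescent cells they summed to 1266 and 1391 CPM, so that the list did not single out subpallial cells. Gli1 is also counted among the Hedgehog genes below. Meis2, a homeobox factor, was at 978 and 987 CPM in the Rgs5 group against 839 and 768 CPM in the Thbs4 group (log2 fold change 0.26 ± 0.08 (SE), adjusted p = 0.0478).

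Markers of other cell types were low in both groups. Rgs5 is also a pericyte gene, and of 14 mural markers 10 had no UMI in the Rgs5 group of either library, among them Vtn, Kcnj8, Abcc9 and Higd1b. The 14 summed to 154 and 164 CPM in the Rgs5 group and 121 and 125 CPM in the Thbs4 group, and most of these UMIs were of Pdgfrb, a growth factor receptor (119.8 and 123 CPM in the Rgs5 group against 90.5 and 97.1 CPM in the Thbs4 group). Of 4 mural markers that could be tested, Pdgfrb included, edgeR and DESeq2 called 0, and 2 had an unadjusted p under 0.05 in edgeR. Endothelial markers summed to 9.74 and 11.7 CPM in the Rgs5 group and 15.5 and 16.0 CPM in the Thbs4 group. Microglial markers summed to 59.4 and 44.0 CPM and 43.5 and 179 CPM, with the highest sum in the Thbs4 group of replicate 2, where all 10 had a UMI. Of the endothelial, microglial, meningeal, hemoglobin and oligodendroglial lists, with 1, 1, 1, 1 and 5 genes tested, none passed. Ependymal markers, of cells that line the ventricle, were higher in the Thbs4 group, at 279.7 and 229 CPM against 158 and 114 CPM. Of 7 ependymal markers tested 3 were higher in the Thbs4 group and 0 in the Rgs5 group. Ak7, Ccdc153 and Spag17 had UMIs in the Thbs4 group of both libraries and none in the Rgs5 group. Mcidas had none in either group, and Tmem212 had some only in the Thbs4 group of replicate 2. These genes were too weak to test. The Rgs5 group sums held 1026805 and 682008 UMIs against 5798098 and 3944738 in the Thbs4 group, so that a lack of UMIs there does not show a difference. Mia, a small secreted protein, was at 92.1 and 56.3 CPM in the Thbs4 group against 38.0 and 11.7 CPM in the Rgs5 group (log2 fold change -1.54 ± 0.20 (SE), adjusted p = 9.04e-12), with -1.28 in replicate 1 and -2.26 in replicate 2. Rsph1, of the ciliary radial spoke, was at 45.5 and 44.4 CPM in the Thbs4 group against 19.5 and 32.3 CPM in the Rgs5 group, and Cfap126, of the ciliary axoneme, at 15.3 and 14.4 CPM in the Thbs4 group against 6.82 and 2.93 CPM in the Rgs5 group, with a log2 fold change of -2.30 in replicate 2. The part of ependymal RNA in the results below was not tested.

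Of the gene lists examined, the immediate-early genes had the most members called in 1 direction, 16 of 24, all higher in the Thbs4 group. Gfap, Clu, Hopx and Id3 were higher there as well. Fabp7, Hes5 and Ccnd2 were among the abundant genes higher in the Rgs5 group. Of 11211 genes tested on UMI sums per library and group, 188 were higher in the Rgs5 group (1.68%) and 220 in the Thbs4 group (1.96%), together 3.64%, at an adjusted p below 0.05 in edgeR's quasi-likelihood test with the library as block. In 407 of the 408 the fold change had the same sign in both libraries, which a test blocked on these libraries nearly requires. At least a log2 fold change of 1 in size was reached by 128 of them. With 2 libraries and a block, a gene had only 1 degree of freedom left to show its own spread, and edgeR replaced it wholly by a spread shared among genes. DESeq2, with a spread per gene that is drawn toward a trend over genes, called 22 and 34, all of them among the 408. It gave no adjusted p for 1957 genes. Without the library block edgeR called 3 and 2. The counts also fell when cells were left out: without cells that had at least 2 UMIs of Aqp4, 8 and 14 genes were called in 53 and 25 Rgs5 group cells.

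**Figure D2:**
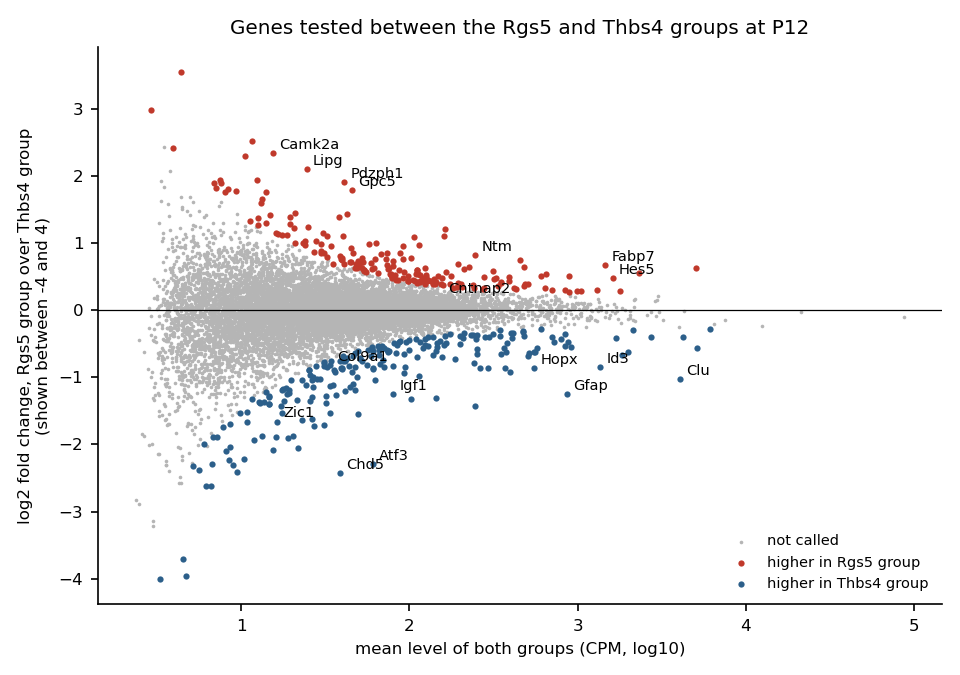
Each point is 1 of 11211 genes, with the mean level of both groups (CPM, log10) on the x axis and the log2 fold change of the Rgs5 group over the Thbs4 group on the y axis, red for the 188 genes higher in the Rgs5 group and blue for the 220 higher in the Thbs4 group. Gfap, Clu, Hopx and Id3 lie low among abundant genes, and Fabp7 and Hes5 lie high, while Cntnap2 is not called.

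Among genes known from quiescent stem cells and radial glia, Gfap, Clu and Hopx were higher in the Thbs4 group, and Fabp7, Ptprz1 and Prom1 in the Rgs5 group. Gfap (ENSMUSG00000020932, chromosome 11, 102887336 to 102900912 in GRCm38), the astrocyte intermediate filament, was at 1181 and 1233 CPM in the Thbs4 group against 552 and 471 CPM in the Rgs5 group. It was 2.39-fold higher in the Thbs4 group (log2 fold change -1.25 ± 0.09 (SE), adjusted p = 6.3e-40). Clu, the secreted chaperone clusterin, was at 6178 and 4616 CPM in the Thbs4 group against 2894 and 2481 CPM in the Rgs5 group (log2 fold change -1.02 ± 0.09 (SE), adjusted p = 2.74e-29). Hopx (ENSMUSG00000059325, chromosome 5, 77086988 to 77115121), a homeodomain-only protein of quiescent stem cells, was at 701 and 709.6 CPM in the Thbs4 group against 386 and 402 CPM in the Rgs5 group (log2 fold change -0.87 ± 0.09 (SE), adjusted p = 5.37e-18). Across these genes both Rgs5 group values lay under both Thbs4 group values. In the other direction, Fabp7 (ENSMUSG00000019874, chromosome 10, 57784881 to 57788450), the brain fatty acid binding protein of radial glia, was at 1732 and 1845 CPM in the Rgs5 group against 960.5 and 1273 CPM in the Thbs4 group (log2 fold change 0.67 ± 0.08 (SE), adjusted p = 1.91e-13). Ptprz1, a receptor tyrosine phosphatase of radial glia, was at 2498 and 3004 CPM in the Rgs5 group against 1638 and 2059 CPM in the Thbs4 group (log2 fold change 0.55 ± 0.08 (SE), adjusted p = 5.28e-09). Prom1, the membrane protein CD133, was at 79.9 and 104 CPM in the Rgs5 group against 57.4 and 53.0 CPM in the Thbs4 group (log2 fold change 0.67 ± 0.15 (SE), adjusted p = 0.000843). Gfap, Clu, Hopx and Fabp7 also passed in DESeq2 (adjusted p = 1.99e-21, 3.01e-26, 8.59e-08 and 1.48e-07).

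Of 30 quiescent stem cell genes, all tested, 6 were higher in the Rgs5 group (Fabp7, Ptprz1, Prom1, Hes5, Hes1 and Nr2e1), 4 in the Thbs4 group (Gfap, Clu, Hopx and Cpe) and 20 did not pass. Their median log2 fold change was -0.03, against -0.00 over all genes tested. Sox9, at 2149 and 1875 CPM in the Rgs5 group against 2121 and 2039 CPM in the Thbs4 group, and Glul, at 2283 and 1812 CPM in the Rgs5 group against 2173 and 1865 CPM in the Thbs4 group, were among those that did not pass, as were Slc1a2, Aldoc, Apoe and Nes. Of the study's deep quiescence list, which its authors examined on these libraries and which is not independent evidence of a direction, 10 genes were tested, of which Prom1 and Nr2e1 were higher in the Rgs5 group and Id1 in the Thbs4 group. Of the 10 genes of its astrocyte list, Mfge8 was higher in the Rgs5 group and Clu and Ntsr2 in the Thbs4 group. The list of 20 astrocyte markers tested was also split: Aldh1l1, Slc6a11, Slc7a10 and Grin2c were higher in the Rgs5 group, Gfap, Id3, Aqp4, Ntsr2 and Gjb6 in the Thbs4 group, and 11 did not pass. The log2 fold change of Ntsr2 turned to 0.19 without cells with at least 2 UMIs of Aqp4 and to 0.063 in cells with an Emx1 UMI, and that of Grin2c to -0.00235 with cells thinned before they were chosen. For Gjb6, a connexin, the log2 fold change was -1.50 in replicate 1 and -0.17 in replicate 2. Slc6a11, a GABA transporter, was at 122 and 138 CPM in the Rgs5 group against 76.6 and 70.5 CPM in the Thbs4 group (log2 fold change 0.77 ± 0.13 (SE), adjusted p = 6.83e-07), and the water channel Aqp4 at 251 and 321 CPM in the Thbs4 group against 237 and 198 CPM in the Rgs5 group (log2 fold change -0.38 ± 0.10 (SE), adjusted p = 0.0104).

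Id1, Id2, Id3 and Bambi, which BMP signaling is known to induce, were higher in the Thbs4 group. They are 4 of 12 BMP response genes tested, with none higher in the Rgs5 group and 8 that did not pass (median log2 fold change -0.51). Id3 (ENSMUSG00000007872, chromosome 4, 136143497 to 136145755), an inhibitor of basic helix-loop-helix factors, was at 1707 and 1766 CPM in the Thbs4 group against 1067 and 887 CPM in the Rgs5 group (log2 fold change -0.85 ± 0.09 (SE), adjusted p = 4.15e-20). Id2 was at 613 and 731 CPM in the Thbs4 group against 464 and 411 CPM in the Rgs5 group (log2 fold change -0.62 ± 0.09 (SE), adjusted p = 1.95e-09), and Id1 at 326 and 339 CPM in the Thbs4 group against 247 and 269.8 CPM in the Rgs5 group (log2 fold change -0.39 ± 0.10 (SE), adjusted p = 0.00394). Bambi, a decoy receptor that BMP induces, was at 43.3 and 51.0 CPM in the Thbs4 group against 24.3 and 8.8 CPM in the Rgs5 group (log2 fold change -1.39 ± 0.25 (SE), adjusted p = 6.23e-06), with -0.83 in replicate 1 and -2.53 in replicate 2. Id4, at 1307 and 1113 CPM in the Thbs4 group against 1295 and 938 CPM in the Rgs5 group, Smad6, Smad7 and Smad9 did not pass. Only Id2 and Id3 of the 4 passed in DESeq2, and for Id1 the log2 fold change turned to 0.012 without cells with at least 2 UMIs of Aqp4 and to 0.16 in cells with an Emx1 UMI.

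The receptors of this pathway did not differ detectably. With 3.64% of all genes tested called in edgeR, 0 of 8 is near the share over all genes. Of 8 TGFβ and BMP receptors tested 0 passed in edgeR or DESeq2, and 1 had an unadjusted p under 0.05 in edgeR (median log2 fold change 0.04, range -0.24 to 0.54). Bmpr1a, a type I BMP receptor, was at 148 and 159.8 CPM in the Rgs5 group against 143 and 228 CPM in the Thbs4 group (log2 fold change -0.24 ± 0.11 (SE), adjusted p = 0.33). Bmpr2, the type II receptor, was at 97.4 and 155 CPM in the Rgs5 group against 100.2 and 144 CPM in the Thbs4 group (log2 fold change 0.01 ± 0.12 (SE), adjusted p = 0.99). Of 19 ligands and antagonists tested, Bmp6, Nbl1 and Wfikkn2 were higher in the Thbs4 group and 16 did not pass. Wfikkn2, a secreted protein that binds growth factors of this family, was at 44.2 and 49.9 CPM in the Thbs4 group against 16.6 and 29.3 CPM in the Rgs5 group (log2 fold change -1.12 ± 0.24 (SE), adjusted p = 0.000307). For Nbl1, a BMP antagonist, the log2 fold change was -2.37 in replicate 1 and -1.12 in replicate 2. Bmp6, a ligand, was low, at 12.1 and 16.0 CPM in the Thbs4 group against 2.92 and 2.93 CPM in the Rgs5 group (log2 fold change -2.23 ± 0.56 (SE), adjusted p = 0.00416), with 5 UMIs in the Rgs5 group.

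The Notch genes that passed were higher in the Rgs5 group. Of 16 tested, Hes5, Hes1 and Jag1 were higher in the Rgs5 group, none in the Thbs4 group and 13 did not pass (median log2 fold change 0.06). Hes5 (ENSMUSG00000048001, chromosome 4, 154960923 to 154962371), a transcriptional repressor that Notch induces, was at 1813 and 1974 CPM in the Rgs5 group against 1257 and 1424 CPM in the Thbs4 group (log2 fold change 0.48 ± 0.08 (SE), adjusted p = 1.17e-06), and it passed in DESeq2. Hes1 was at 889 and 534 CPM in the Rgs5 group against 713 and 406 CPM in the Thbs4 group (log2 fold change 0.32 ± 0.09 (SE), adjusted p = 0.00884), so that its values overlap between the groups across libraries and are ordered within each. Jag1, a Notch ligand, was at 29.2 and 49.9 CPM in the Rgs5 group against 12.9 and 27.1 CPM in the Thbs4 group (log2 fold change 0.99 ± 0.26 (SE), adjusted p = 0.00647). The receptors Notch1, Notch2 and Notch3 and the mediator Rbpj did not pass. Stricter groups required at least 4 UMIs of Rgs5 and none of Thbs4, or at least 6 of Thbs4 and none of Rgs5. With these thresholds, which left 14 and 17 Rgs5 group cells, the log2 fold change of Hes5 turned to -0.26 and that of Jag1 to -0.22.

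Members of other growth factor pathways passed in either direction. Of 17 genes of the fibroblast growth factor (FGF) pathway, Etv1, Fgf13, Fgfbp3 and Fgfr2 were higher in the Rgs5 group and none in the Thbs4 group (median log2 fold change 0.25). Fgf13, an intracellular FGF homolog, was at 87.7 and 86.5 CPM in the Rgs5 group against 44.7 and 52.2 CPM in the Thbs4 group (log2 fold change 0.84 ± 0.16 (SE), adjusted p = 1.4e-05), and Etv1, an ETS factor, at 30.2 and 45.5 CPM in the Rgs5 group against 17.4 and 17.7 CPM in the Thbs4 group. Gli1 and Ptch1, both of which Hedgehog signaling induces, were the 2 of 9 Hedgehog genes that passed, and both were higher in the Rgs5 group. Gli1 was at 18.5 and 22.0 CPM in the Rgs5 group against 7.42 and 8.62 CPM in the Thbs4 group (log2 fold change 1.30 ± 0.37 (SE), adjusted p = 0.0177) and Ptch1 at 84.7 and 132 CPM in the Rgs5 group against 63.8 and 87.5 CPM in the Thbs4 group (log2 fold change 0.48 ± 0.14 (SE), adjusted p = 0.0209). Of 10 insulin-like growth factor genes, Igf1, Igfbp5 and Igfbp7 were higher in the Thbs4 group. Igf1, the ligand, was at 118 and 108 CPM in the Thbs4 group against 56.5 and 38.1 CPM in the Rgs5 group (log2 fold change -1.25 ± 0.16 (SE), adjusted p = 1.47e-12), with no overlap between the groups. Igf1 is also known from microglia. In replicate 1 microglial markers summed to 59.4 CPM in the Rgs5 group and 43.5 CPM in the Thbs4 group, with a log2 fold change of Igf1 of -1.06. In replicate 2 they summed to 44.0 and 179 CPM, with -1.51, and their part in the result was not tested. Of 18 Wnt genes, Dkk3, a secreted protein, and Sfrp1, a secreted antagonist, were higher in the Rgs5 group. Lgr4, a receptor for R-spondins, was higher in the Thbs4 group. For Lgr4 the log2 fold change was -2.15 in replicate 1 and -0.61 in replicate 2.

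**Figure D3:**
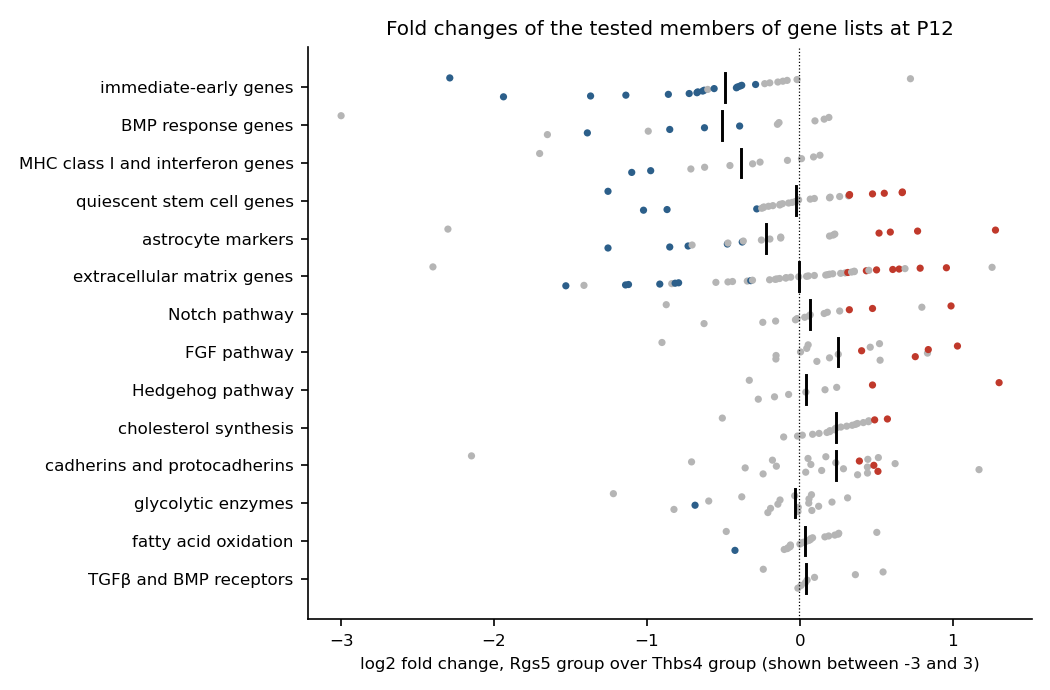
Each point is a tested member of 1 of 14 gene lists, placed by its log2 fold change (x axis, Rgs5 group over Thbs4 group), red or blue where it was called higher in the Rgs5 or the Thbs4 group and grey where it was not, with the list's median as a black bar. Of 24 immediate-early genes 16 are blue and 0 red, and the extracellular matrix list holds 7 of each.

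Immediate-early genes, which cells induce within minutes of a stimulus, were higher in the Thbs4 group. Of 24 tested, 16 passed in that direction, none in the Rgs5 group and 8 did not pass (median log2 fold change -0.49). Atf3, a stress-induced transcription factor, was at 113 and 88.5 CPM in the Thbs4 group against 28.2 and 11.7 CPM in the Rgs5 group (log2 fold change -2.29 ± 0.20 (SE), adjusted p = 1.84e-26), with -2.01 in replicate 1 and -2.92 in replicate 2, and passed in DESeq2. Junb was at 2663 and 1838 CPM in the Thbs4 group against 1727 and 1152 CPM in the Rgs5 group (log2 fold change -0.67 ± 0.08 (SE), adjusted p = 8.97e-13), and Jun at 7034 and 4949.6 CPM in the Thbs4 group against 5276 and 3126 CPM in the Rgs5 group (log2 fold change -0.56 ± 0.08 (SE), adjusted p = 1.27e-08). Cebpd, a factor of the acute phase, was at 489 and 258 CPM in the Thbs4 group against 269.8 and 149.6 CPM in the Rgs5 group (log2 fold change -0.86 ± 0.10 (SE), adjusted p = 6.91e-14). For Jun, as for Junb and Cebpd, the level also differed between the libraries, and the groups are ordered within each library. Ier3, Egr2 and Ier5 passed at low levels, with Ier3 at 19.8 and 19.3 CPM in the Thbs4 group against 8.77 and 0 CPM in the Rgs5 group and a log2 fold change of -1.18 in replicate 1. Among those that did not pass were 3 well-known members. Fos was at 8536 and 7131 CPM in the Thbs4 group against 7570.1 and 6824 CPM in the Rgs5 group (log2 fold change -0.14 ± 0.09 (SE), adjusted p = 0.52), Egr1 at 2829 and 3093 CPM in the Thbs4 group against 2721 and 2968 CPM in the Rgs5 group (log2 fold change -0.08 ± 0.08 (SE), adjusted p = 0.8) and Ier2 at 1342 and 1096 CPM in the Thbs4 group against 1294 and 1152 CPM in the Rgs5 group (log2 fold change -0.02 ± 0.08 (SE), adjusted p = 0.98). Dissociation is known to induce these genes, and both groups came from the same suspension in each library. The part of dissociation in the difference was not tested.

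The promoters of these genes are given because 16 of them moved together. RefSeq promoters of GRCm38.p6 were searched on both strands, in 250 bases before the start site, for the cAMP response element TGACGTCA, its core TGACG and the AP-1 site TGANTCA, the sequences that CREB, ATF and FOS/JUN factors are known to bind. Of the 16 genes, 15 had a promoter in the table. The full element was in 1 of the 15 (Dusp1), against 1.77% of 27025 genes, the AP-1 site in 0 of 15 against 7.82%, and the core, which the full element contains, in 8 of 15 against 19.8%. A match describes letters in the window only. The immediate-early genes that did not pass are not counted here, so that these shares cannot tell the called members from the rest of the list. Atf3, Fosb and Junb, a transcription factor each, are shown 5′ to 3′ on the strand of the gene, with the core (in either orientation) in capitals. Fosb was at 1959.8 and 1877 CPM in the Thbs4 group against 1640.0 and 1295 CPM in the Rgs5 group (log2 fold change -0.41 ± 0.08 (SE), adjusted p = 7.75e-05).
Atf3, chr1:191183334-191183583, minus strand: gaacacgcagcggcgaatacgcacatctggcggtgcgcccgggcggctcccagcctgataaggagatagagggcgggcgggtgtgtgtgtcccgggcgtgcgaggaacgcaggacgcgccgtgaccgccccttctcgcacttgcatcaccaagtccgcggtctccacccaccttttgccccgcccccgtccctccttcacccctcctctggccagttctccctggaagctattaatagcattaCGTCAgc
Fosb, chr7:19310046-19310295, minus strand: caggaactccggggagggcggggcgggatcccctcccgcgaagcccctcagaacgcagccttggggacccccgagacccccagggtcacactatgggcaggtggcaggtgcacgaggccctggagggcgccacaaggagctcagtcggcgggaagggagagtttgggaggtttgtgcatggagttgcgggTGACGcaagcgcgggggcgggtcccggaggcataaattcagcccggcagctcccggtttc
Junb, chr8:84978749-84978998, minus strand: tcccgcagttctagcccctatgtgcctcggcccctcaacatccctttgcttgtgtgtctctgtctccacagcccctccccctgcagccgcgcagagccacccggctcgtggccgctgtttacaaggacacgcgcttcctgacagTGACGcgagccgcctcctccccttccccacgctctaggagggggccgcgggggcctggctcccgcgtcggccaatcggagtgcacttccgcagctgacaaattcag
The nearest core began 7 bases before the start site in Atf3, 60 in Fosb and 106 in Junb.

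Genes of the cell surface and the extracellular matrix changed in both directions. Of 45 matrix genes tested, 7 were higher in each group and 31 did not pass. On the Rgs5 side were Tnc, Vcan and Ncan, matrix proteins of immature neural tissue, with Mfge8, Timp3, Col11a1 and Col23a1. Tnc, tenascin C, was at 143 and 374 CPM in the Rgs5 group against 94.0 and 239 CPM in the Thbs4 group (log2 fold change 0.61 ± 0.10 (SE), adjusted p = 9.88e-07), higher in the Rgs5 group within each library while replicate 2 was higher throughout. Vcan, versican, was at 91.5 and 101 CPM in the Rgs5 group against 48.3 and 76.8 CPM in the Thbs4 group (log2 fold change 0.65 ± 0.15 (SE), adjusted p = 0.000778). On the Thbs4 side were the collagen chains Col9a1, Col9a3, Col11a2 and Col16a1 with Tnr, Bcan and Lgals1. Tnr, tenascin R, was at 30.2 and 72.2 CPM in the Thbs4 group against 16.6 and 16.1 CPM in the Rgs5 group (log2 fold change -1.53 ± 0.26 (SE), adjusted p = 6.99e-07), and its log2 fold change was -0.87 in replicate 1 and -2.16 in replicate 2. Of the surface proteoglycans, Gpc5, a glypican, was at 79.9 and 60.1 CPM in the Rgs5 group against 18.1 and 23.3 CPM in the Thbs4 group (log2 fold change 1.78 ± 0.21 (SE), adjusted p = 1.02e-14), and Sdc4, a syndecan, at 342 and 333 CPM in the Thbs4 group against 205 and 170.1 CPM in the Rgs5 group (log2 fold change -0.86 ± 0.10 (SE), adjusted p = 1.49e-13).

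Adhesion and guidance genes that passed were mostly higher in the Rgs5 group. Of 23 cadherins and protocadherins, Celsr1, Pcdh10 and Pcdh8 were higher there and 20 did not pass. Of 14 neurexins and related proteins, Ntm and Nrxn3 were. Ntm, the adhesion protein neurotrimin, was at 337 and 296 CPM in the Rgs5 group against 193 and 159 CPM in the Thbs4 group (log2 fold change 0.82 ± 0.10 (SE), adjusted p = 3.22e-14), and Nrxn3, a neurexin, at 17.5 and 22.0 CPM in the Rgs5 group against 5.86 and 6.84 CPM in the Thbs4 group (log2 fold change 1.60 ± 0.40 (SE), adjusted p = 0.00334). Of 28 guidance genes, the ephrins Efnb1 and Efnb2 and the semaphorin Sema6a were higher in the Rgs5 group. Nrp2, a semaphorin receptor, had 0 UMIs in the Rgs5 group against 60 in the Thbs4 group. Set against a floor of 3 UMIs over the Rgs5 group, it was at least 3.51-fold higher in the Thbs4 group, at a low level of 4.31 and 8.87 CPM (adjusted p = 0.00505). With Nrp2 at that bound the list's median log2 fold change was 0.28, as with its fitted value.

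Beyond these pathways, Rgs4, the only one of 11 other regulators of G protein signaling to pass, was at 14.6 and 17.6 CPM in the Rgs5 group against 5.0 and 7.86 CPM in the Thbs4 group (log2 fold change 1.33 ± 0.42 (SE), adjusted p = 0.0467), and its log2 fold change was -0.29 in the stricter groups. Among receptors, Adra2a, an adrenergic receptor, was at 23.8 and 27.9 CPM in the Thbs4 group against 8.77 and 4.4 CPM in the Rgs5 group (log2 fold change -1.88 ± 0.38 (SE), adjusted p = 0.000101), with -1.44 in replicate 1 and -2.66 in replicate 2. Of 21 glial receptors tested 3 were higher in the Thbs4 group and 1 in the Rgs5 group, which was Ednrb, the endothelin B receptor, at 583 and 494 CPM in the Rgs5 group against 409 and 423 CPM in the Thbs4 group (log2 fold change 0.36 ± 0.09 (SE), adjusted p = 0.00338). Of 20 genes of gap junctions, water and ion transport, 3 were higher in each group. Of 22 cholesterol synthesis genes, 2 passed, both higher in the Rgs5 group, and 20 did not. Their median log2 fold change was 0.23, and 13 of the 22 had the same sign in both libraries. Hmgcs1, an enzyme of this pathway, was at 400.3 and 523 CPM in the Rgs5 group against 317 and 320.2 CPM in the Thbs4 group (log2 fold change 0.49 ± 0.09 (SE), adjusted p = 8.81e-06). Pfkm was the only one of 19 glycolytic enzymes to pass, and Acsl3 the only one of 22 fatty acid oxidation genes, both higher in the Thbs4 group. Over all genes tested 3.64% were called. The few calls in these lists, among cholesterol genes and among regulators of G protein signaling are thus not read as results about the lists. Of 12 class I and interferon genes, H2-D1 and Ifitm3 were higher in the Thbs4 group, with Ifitm3 at 206 and 96.1 CPM in the Thbs4 group against 109 and 46.9 CPM in the Rgs5 group (log2 fold change -0.98 ± 0.13 (SE), adjusted p = 1.38e-10).

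Among all genes tested 3.64% passed in either direction, so that few calls among cell cycle genes are no trait of theirs. Of 18 genes of activation and S phase, Ccnd2, cyclin D2, was higher in the Rgs5 group, at 375 and 387 CPM in the Rgs5 group against 263 and 232 CPM in the Thbs4 group (log2 fold change 0.59 ± 0.09 (SE), adjusted p = 8.03e-08), and 17 did not pass, among them Ccnd1, Cdk4 and Pcna. Cdkn1a, the inhibitor p21, was at 22.4 and 16.5 CPM in the Thbs4 group against 9.74 and 7.33 CPM in the Rgs5 group (log2 fold change -1.21 ± 0.39 (SE), adjusted p = 0.0467), and Cdkn1b, p27, at 285 and 258 CPM in the Rgs5 group against 295 and 292 CPM in the Thbs4 group and did not pass. Of 4 neuroblast markers tested, only Nrxn3 passed. Of 12 RNA quality genes mt-Nd1 was higher in the Rgs5 group and Neat1 in the Thbs4 group. The median mitochondrial share of a cell's UMIs was 1.64% and 1.92% in the Rgs5 group and 1.49% and 1.55% in the Thbs4 group, and the part of this difference in the results was not tested.

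By size of change alone, the 15 largest rises in each group with at least 20 CPM in the higher group were in many cases of weak genes, as the plot of the largest changes shows. Lipg, an endothelial lipase, was at 39.0 and 41.1 CPM in the Rgs5 group against 9.83 and 8.11 CPM in the Thbs4 group (4.3-fold, log2 fold change 2.10 ± 0.30 (SE), adjusted p = 4.11e-10). Pdzph1, a PDZ domain protein, was at 56.5 and 73.3 CPM in the Rgs5 group against 15.5 and 18.3 CPM in the Thbs4 group (3.74-fold, log2 fold change 1.90 ± 0.23 (SE), adjusted p = 3.34e-14). Camk2a, a calcium-dependent kinase, was at 31.2 and 20.5 CPM in the Rgs5 group against 8.8 and 1.01 CPM in the Thbs4 group (log2 fold change 2.33 ± 0.38 (SE), adjusted p = 1.79e-07), with a log2 fold change of 4.34 in replicate 2 that rests on 4 UMIs in the Thbs4 group. These levels were ordered alike in both libraries. Gabra2, a GABA receptor subunit, was at 11.7 and 51.3 CPM in the Rgs5 group against 8.62 and 11.4 CPM in the Thbs4 group, with a log2 fold change of 0.44 in replicate 1 and 2.17 in replicate 2. On the Thbs4 side, Chd5, a chromatin remodeler, was at 46.9 and 84.9 CPM in the Thbs4 group against 14.6 and 7.33 CPM in the Rgs5 group (5.37-fold, log2 fold change -2.42 ± 0.26 (SE), adjusted p = 3.38e-17), with -1.68 in replicate 1 and -3.53 in replicate 2. Csrp2, a LIM domain protein, was at 39.7 and 30.4 CPM in the Thbs4 group against 8.77 and 8.8 CPM in the Rgs5 group (log2 fold change -2.05 ± 0.33 (SE), adjusted p = 1.53e-07), and Igfbp7, an IGF binding protein, at 32.1 and 27.6 CPM in the Thbs4 group against 8.77 and 7.33 CPM in the Rgs5 group (log2 fold change -1.91 ± 0.35 (SE), adjusted p = 9.75e-06). Zic1, a zinc finger factor, was at 24.3 and 26.6 CPM in the Thbs4 group against 11.7 and 2.93 CPM in the Rgs5 group (log2 fold change -1.66 ± 0.37 (SE), adjusted p = 0.000612), with -1.06 in replicate 1 and -3.18 in replicate 2. The other genes with the largest rises in the Rgs5 group were Gpc5, Dpp6, Slc13a5, Usp51, Prim2, Tgfa, Abcb9, Cacna2d1, Gli1, Grin2c and Fam184b, with log2 fold changes from 1.24 to 1.94. For Dpp6, a potassium channel partner, it was 1.26 in replicate 1 and 2.61 in replicate 2. On the Thbs4 side the others were Atf3, Eya1, Adra2a, Nbl1, Tagln2, Hspb8, Ppp1r1b, Sned1, Cyp1b1, Mia and Serping1, from -2.29 to -1.54. It was -1.66 in replicate 1 and -2.72 in replicate 2 for Eya1, a transcriptional coactivator, and -1.36 in replicate 1 and -2.40 in replicate 2 for Ppp1r1b, a phosphatase inhibitor. Of the genes given with their levels here, Lipg, Pdzph1 and Camk2a passed in DESeq2 (adjusted p = 0.00702, 0.000496 and 0.0268). Of 98 named genes that passed, 20 had a fold change in 1 library over 1.5 times off the fit of both.

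**Figure D4:**
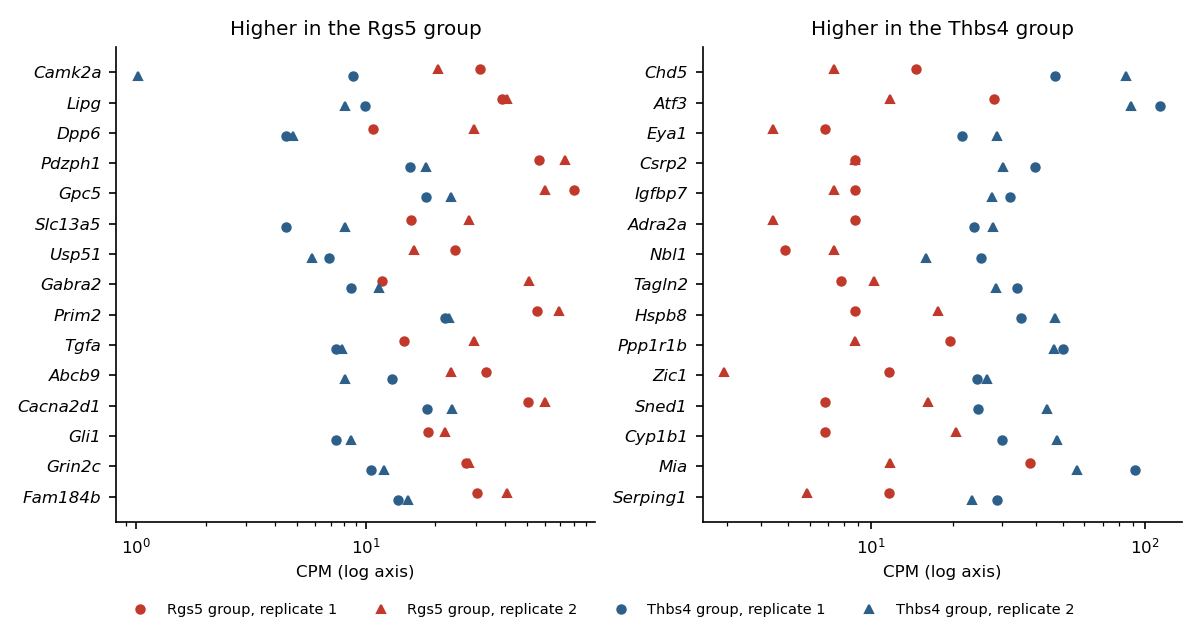
Points give the level (CPM, log axis) in each group and library for the 15 genes with the largest change in either direction, red for the Rgs5 group, blue for the Thbs4 group, circles for replicate 1 and triangles for replicate 2. Lipg lies at 39.0 and 41.1 in red against 9.83 and 8.11 in blue, and Gabra2 is the gene of the left panel in which red and blue come closest.

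Cells just inside and just outside the thresholds were set side by side. Cells with 1 UMI of Rgs5 and at most 1 of Thbs4 (103 and 31 cells), just outside the Rgs5 group, had Gfap at 552 and 621 CPM, and those with 2 UMIs of Rgs5 (56 and 22 cells), just inside, at 605 and 391 CPM. Hes5 was at 1588 and 1778 CPM outside and 1854 and 1688 CPM inside. For both genes the values inside and outside overlapped. With 3 or 4 UMIs of Rgs5 (43 and 25 cells) Gfap was at 356 and 508 CPM. With 5 or more (7 and 10 cells) it was at 1263 and 536 CPM, so that the few cells richest in Rgs5 in replicate 1 lay above the Thbs4 group. Among cells without Rgs5, those with 2 UMIs of Thbs4 (83 and 35 cells) had Hopx at 605 and 479 CPM, those with 3 (65 and 41 cells) at 688 and 569.8 CPM, and those with 8 or more (325 and 217 cells) at 754 and 809 CPM. Clu was at 5152 and 3369 CPM with 2 UMIs, 4608 and 3601 CPM with 3 and 6855 and 5015 CPM with 8 or more. Cells with 0 UMIs of Thbs4 and of Rgs5 had Clu at 3479.9 and 2622 CPM. These values are a description, since both genes were used to choose the cells.

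Quiescent cells with at least 2 UMIs of both genes (159 and 180 cells) were compared with each group in turn, with the same test, as comparisons added after the data were seen. They share libraries and cells of the groups with the main comparison. Against the Rgs5 group, 46 of 10040 genes were higher (0.458%) and 38 lower (0.378%) in cells with both. Both directions together make up 0.837% of the genes tested. Against the Thbs4 group, 63 of 11514 were higher (0.547%) and 100 lower (0.869%), together 1.42%. Gfap was at 1038 and 1101 CPM in cells with both (against the Rgs5 group 1.07 ± 0.10 (SE), adjusted p = 2.3e-25, and against the Thbs4 group -0.19 ± 0.06 (SE), adjusted p = 0.0659). Id3 was at 1945 and 2086 CPM, above both groups (1.05 ± 0.09 (SE), adjusted p = 1.06e-27, and 0.20 ± 0.05 (SE), adjusted p = 0.0195). Hopx was at 591 and 646 CPM (0.66 ± 0.10 (SE), adjusted p = 4.56e-08, and -0.20 ± 0.06 (SE), adjusted p = 0.0721). Gfap and Hopx thus passed against the Rgs5 group and not against the Thbs4 group, and Hes5 the other way round. Hes5 was at 1907 and 2023 CPM (0.07 ± 0.09 (SE), adjusted p = 0.92, and 0.54 ± 0.05 (SE), adjusted p = 5.76e-16). Clu, at 4240.4 and 3411 CPM, lay between the groups and differed from each (0.52 ± 0.09 (SE), adjusted p = 8.59e-07, and -0.50 ± 0.05 (SE), adjusted p = 1.43e-16). Fabp7, at 1267 and 1607 CPM, also differed from each (-0.31 ± 0.09 (SE), adjusted p = 0.0389, and 0.35 ± 0.06 (SE), adjusted p = 1.09e-06). Igf1 was at 55.4 and 57.1 CPM, lower than in the Thbs4 group (-1.02 ± 0.11 (SE), adjusted p = 5.38e-13) and with no call against the Rgs5 group (0.24 ± 0.20 (SE), adjusted p = 0.83). Cntnap2, which did not pass between the groups, was at 177 and 210.2 CPM in cells with both, higher than in the Thbs4 group (0.42 ± 0.09 (SE), adjusted p = 0.000717).

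**Figure D5:**
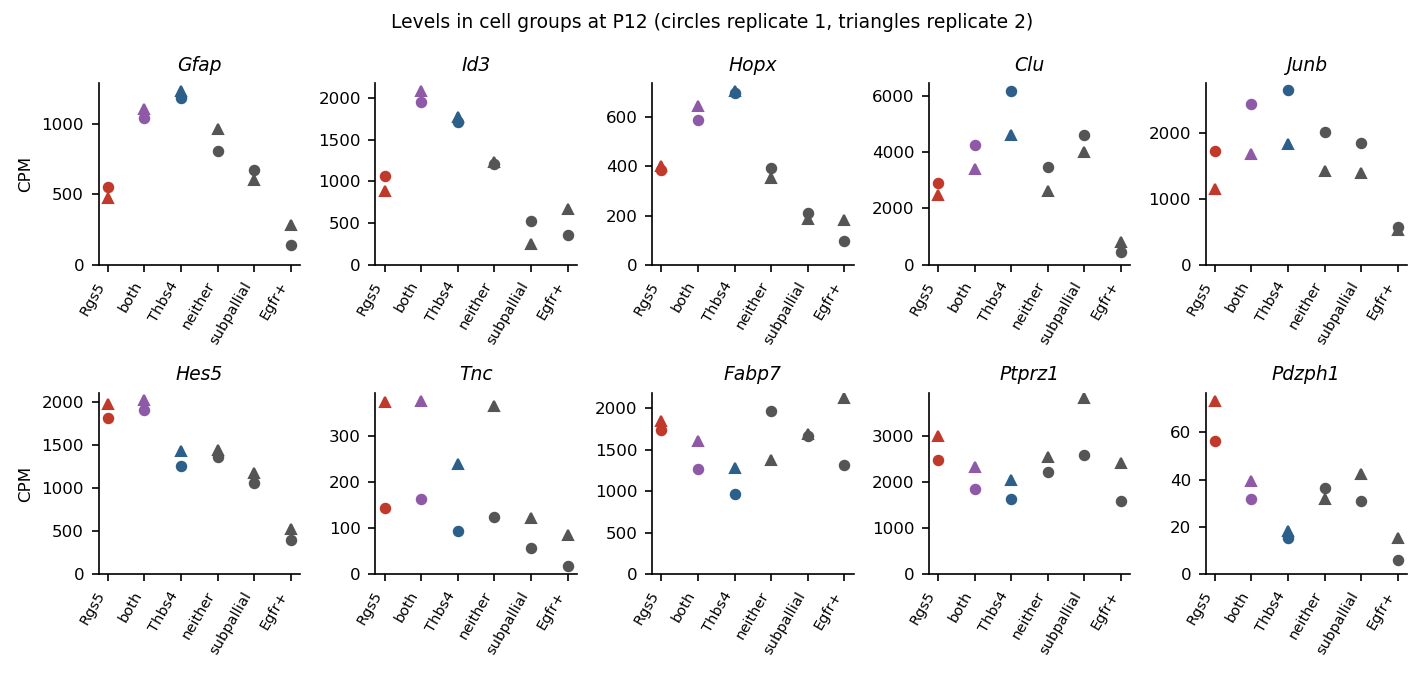
Each panel gives 1 gene's level (CPM, y axis from 0) in 6 groups of P12 cells, circles for replicate 1 and triangles for replicate 2: the Rgs5 group (red), quiescent cells with both genes (purple), the Thbs4 group (blue), and in grey quiescent cells with neither gene, subpallial quiescent cells and cells with at least 2 UMIs each of Slc1a3 and Egfr and none of Foxj1. Gfap and Hopx in cells with both genes lie near the Thbs4 group, Id3 above both groups, Hes5 and Tnc near the Rgs5 group, and Clu, Fabp7 and Pdzph1 in between.

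Quiescent cells with 0 UMIs of both genes (211 and 85 cells) and subpallial quiescent cells (133 and 151 cells) were set beside the groups. In replicate 2 the cells with neither gene also carried markers of other cell types: endothelial markers summed to 1317 CPM and microglial markers to 1519.7 CPM there, against 7.16 and 158 CPM in replicate 1. The part of these cells in the levels was not tested. Id3 was at 1211 and 1232 CPM with neither gene and at 523 and 246 CPM in subpallial cells, so that the Rgs5 group (1067 and 887 CPM) lay under cells with neither gene and above subpallial cells. Gfap was at 802 and 958 CPM and 671 and 600.2 CPM, both above the Rgs5 group (552 and 471 CPM). Hopx was at 393 and 355 CPM and 209 and 186 CPM. Cells with neither gene thus lay near the Rgs5 group and under the Thbs4 group, and subpallial cells were lowest. Igf1 was at 59.9 and 39.9 CPM and 13.9 and 0.481 CPM, against 118 and 108 CPM in the Thbs4 group. For Igf1 too, cells with neither gene lay near the Rgs5 group. Gpc5 was at 58.8 and 58.7 CPM and 90.7 and 101 CPM, with the subpallial cells above the Rgs5 group. Fabp7 was at 1966 and 1374 CPM in cells with neither gene. These values lay above the Thbs4 group in both libraries, and above the Rgs5 group in replicate 1 but not in replicate 2. A further set of cells had at least 2 UMIs each of Slc1a3 and Egfr and none of Foxj1 (1430 and 1151 cells). Egfr is a receptor of activated stem cells and progenitors. In these cells Gfap was at 141 and 282 CPM, Hopx at 98.1 and 179.8 CPM and Hes5 at 403 and 529.6 CPM, each under the Rgs5 and the Thbs4 group. These levels are a description over 2 libraries, with no test.

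At the other ages only 1 of the groups had at least 20 cells, so that no fold change could be given there, and each value comes from 1 library with an exact Poisson 95% interval that covers counting error only. In the 49 cells of the Rgs5 group at P2, Fabp7 was at 18124 CPM (17832 to 18419), Hes5 at 1207 CPM (1133 to 1285) and Gfap at 488 CPM (441 to 539). Id3 was at 86.3 CPM (67.3 to 109), Clu at 1330.4 CPM (1252 to 1412) and Junb at 226 CPM (194 to 261) in these cells, lower than in either group at P12. Lipg was at 92.5 CPM (72.7 to 116) and Pdzph1 at 56.7 CPM (41.5 to 75.7). In the 133 cells of the Thbs4 group at P22, Gfap was at 1169 CPM (1106 to 1235), Id3 at 1832 CPM (1753 to 1915) and Clu at 9402 CPM (9221 to 9587). Hopx was at 331 CPM (298 to 368), Igf1 at 31.3 CPM (21.7 to 43.7) and Atf3 at 1.84 CPM (0.223 to 6.65), each under both values of the Thbs4 group at P12. Age, library and, per the file headers, the Cell Ranger version cannot be told apart in these values.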

How the data were processed

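Dorsal V-SVZ cells of OF1 mice were profiled with 10x Genomics chemistry in 4 libraries. The authors used mm10 and Cell Ranger, whose version per the file headers was 3.1.0 at P12 and 5.0.1 at P2 and P22, and deposited raw UMI counts for 31053 gene rows and the barcodes called as cells. The 71 rows that share a symbol were kept apart by identifier, and Aldoa, listed under more than 1 identifier, was not used. From these, counts were summed per library and group, since cells are not replicates, and compared with edgeR 4.0.16 (TMM factors, filterByExpr, a block for the library, threshold 0.05 after Benjamini-Hochberg adjustment over every gene tested) in R 4.3.3. Both groups come from the same library, which is the pairing. P-values rest on a spread between 2 libraries that edgeR shared among genes, and not on each gene's own spread. Levels are CPM of a group's summed counts, with no TMM factor. DESeq2 1.42.0, another normalization, no filter on low counts, no block, other cell filters, stricter groups, thinned cells and single libraries were alternatives. Scrublet scores came from scanpy 1.11.5, and in place of its calls the 5% of cells with the highest scores were left out as an alternative. Named genes are the 3 markers, the 15 largest changes in each direction, and up to 4 called members of each list with every called regional factor. Others (Aldh1l1, Aqp4, Cebpd, Cpe, Dusp1, Fosb, Jun, Junb, Ptprz1, Tnc, Vcan, the other matrix genes listed and the genes of the closing section) were chosen after their values were seen. Members and lists were chosen with earlier results of these data known. The tests were also tested on simulated data. Gene positions are from GENCODE vM21 and promoters from RefSeq. Some genes of the lists are not reported here. The study states 2 filters on detected genes, of which the wider was used.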

Additional observations from a re-analysis of the deposited data

How the results depend on the processing

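The number of genes called changed between alternatives, while directions held in nearly every one. Of 1474 values of 100 named genes under the alternatives, 1465 kept their direction. Of these genes 98 were called in the main test, and every alternative used the same P12 libraries. A kept direction was thus nearly fixed in advance and is no separate support. Against 188 genes higher in the Rgs5 group and 220 in the Thbs4 group, DESeq2 called 22 and 34, and edgeR with no replicate block, which leaves the pairing of groups within a library unused, 3 and 2 (514 genes had an unadjusted p under 0.05). Stricter groups gave 26 and 51, thinning before the groups were chosen 44 and 70, thinning after it 56 and 91, leaving out cells with at least 2 UMIs of Aqp4 8 and 14, leaving out cells with a mural UMI 30 and 73, and keeping only cells with an Emx1 UMI 48 and 55. These settings hold fewer cells or UMIs, and whether another cause adds to the drop was not tested. Most mural UMIs were of Pdgfrb: with Pdgfrb aside, an alternative added after the data were seen, the counts were 186 and 218. Upper-quartile normalization gave 160 and 229, no filter 134 and 238, the filter of 2500 to 7500 genes 185 and 213, and leaving out the highest doublet scores 188 and 218. All 408 genes had the same direction under DESeq2 and without the block, and 56 and 5 of them were called. Signs turned, all without a call, for Grin2c with cells thinned before grouping (-0.00235), Id1 (0.012) and Ntsr2 (0.19) without Aqp4 cells, Id1 (0.16) and Ntsr2 (0.063) with Emx1 cells only, and Jag1 (-0.22), Hes5 (-0.26) and Rgs4 (-0.29) in stricter groups, and the cause was not tested. Tfap2c, not called, was at -0.35 in replicate 2 alone. Detected genes per cell differed by 33.5 at equal depth and by 121 with no thinning, and by 20 to 47 with 1 library left out. Without 1 replicate there is no test, and only folds were compared. Adding P2 and P22 to the fit was not run, because neither library held 20 cells of both groups.

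A transcript at 100 CPM gives 1.19 and 1.39 UMIs in the median kept cell of the P12 libraries, so that a group of 57 cells holds few UMIs of weak genes. The 163 cells of the Rgs5 group were summed against 962, so that the smaller group sets the error. The sources do not settle how many mice each library holds, and 2 libraries cannot give a spread per gene.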

Other observations

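Among genes outside the lists, named here after their values were seen, several abundant ones differed between the groups in both libraries. Higher in the Rgs5 group was Ptn, the secreted growth factor pleiotrophin, at 5935 and 6425 CPM in the Rgs5 group against 3793 and 4109 CPM in the Thbs4 group (log2 fold change 0.62 ± 0.08 (SE), adjusted p = 5.96e-11). Fam210b, a mitochondrial protein, was at 199 and 259.5 CPM in the Rgs5 group against 88.1 and 106 CPM in the Thbs4 group (log2 fold change 1.20 ± 0.11 (SE), adjusted p = 9.82e-25), and Rnd3, a small GTPase, at 202 and 243 CPM in the Rgs5 group against 98.3 and 103 CPM in the Thbs4 group (log2 fold change 1.11 ± 0.11 (SE), adjusted p = 9.66e-21). Luzp2, a leucine zipper protein, was at 605 and 537 CPM in the Rgs5 group against 331 and 345 CPM in the Thbs4 group (log2 fold change 0.74 ± 0.09 (SE), adjusted p = 3.75e-14). In each of these genes the lower of the 2 Rgs5 group values lay above the higher of the 2 Thbs4 group values.

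Higher in the Thbs4 group was Slc38a1, an amino acid transporter, at 397 and 312 CPM in the Thbs4 group against 157 and 110.0 CPM in the Rgs5 group (log2 fold change -1.43 ± 0.11 (SE), adjusted p = 3.88e-33). C4b, a complement component, was at 253 and 157 CPM in the Thbs4 group against 111 and 55.7 CPM in the Rgs5 group (log2 fold change -1.31 ± 0.13 (SE), adjusted p = 3.17e-21), and Gsn, the actin-severing protein gelsolin, at 188 and 104 CPM in the Thbs4 group against 75.0 and 44.0 CPM in the Rgs5 group (log2 fold change -1.33 ± 0.14 (SE), adjusted p = 3.38e-17). Tmem47, a membrane protein of cell junctions, was at 445 and 503 CPM in the Thbs4 group against 258 and 268 CPM in the Rgs5 group (log2 fold change -0.87 ± 0.10 (SE), adjusted p = 9.05e-16). Gadd45g, a growth arrest gene, was at 665 and 369 CPM in the Thbs4 group against 403 and 155 CPM in the Rgs5 group (log2 fold change -0.93 ± 0.10 (SE), adjusted p = 5.37e-18), so that its values overlap across libraries and are ordered within each.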
